A study of Mus musculus with 8 samples.

Results

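Genes with fewer reads in both input libraries of Alkbh5 knockout germ cells than in both input libraries of wild-type germ cells were collected by a rule on these same counts. The count of a gene was divided by the size factor of the library (median of ratios) and expressed per 1000000 counts of the mean library total, which is called its level here. Levels are not divided by transcript length, so they compare libraries and not genes. A gene entered when it reached a level of 10 in some library and its lower wild-type level was at least 3 times its higher knockout level, with 0.5 added to each. The rule took 124 genes of the 13493 that reached the level (0.919%) and of 53465 in the count table. The mirrored rule, for genes higher in both knockout libraries, took 108 (0.800%). With the libraries scaled by their totals alone, the rule took 68 genes and the mirrored rule 206, because that scaling shifted the median log2 difference of all genes, KO minus WT, from -0.01 to 0.26 in PA and from -0.02 to 0.15 in RO.

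The study profiled spermatogenic cells from testes of C57BL/6 mice aged 12 weeks, either wild type (WT) or Alkbh5-/- (KO). Its libraries are named PA and RO in the labels, and the title of the study speaks of pachytene spermatocytes and round spermatids. Each of the 4 combinations of genotype and cell fraction gave 1 input library, the unselected RNA fragments, and 1 library of fragments pulled down with an antibody against N6-methyladenosine (m6A), 8 samples in all. All groups share strain, age and tissue; how the deletion was made and how many animals gave each library are not given in the sources used here. With 1 library per group there is no replicate check on any value. The intervals in brackets are 95% intervals. Those for folds are exact binomial and cover the counting error of reads only. Those for shares are Wilson intervals that treat each gene or peak as a separate draw, which peaks of the same gene are not. The genes were chosen by the WT to KO difference, so that their levels and folds describe the choice and were not tested.

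ALKBH5 is an RNA demethylase that removes m6A, a methyl mark on adenosines of messenger and long noncoding RNA that is read by proteins acting on splicing, export, translation and decay. In the testis the enzyme is abundant, and mice without it are known for smaller testes and impaired sperm. Pachytene spermatocytes are in meiotic prophase and already transcribe many genes whose proteins are built into the sperm tail and head after meiosis. Round spermatids are the haploid cells that follow.

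Input totals lay between 9921365 and 13147239 counts. The level that 3 counts give lay between 0.246 and 0.269. Marker lists could be read only for genes named in the peak lists. Summed levels of 10 late spermatid genes, with the protamine and tail genes Prm2, Tnp2, Odf1 and Akap4 included, put both KO libraries above both WT libraries. They were 435 in WT PA, 778 in WT RO, 840 in KO PA and 1502 in KO RO. Single genes did not all follow the sum, and 1 of the 10 was at least 2 times higher in both KO libraries. Fabp9 went the other way, at 35.5, 26.9, 9.32 and 24.1 in the same order, and Tsks and Prm3 were highest in WT RO. The summed level of 7 early meiotic genes was 2898, 2651, 1816 and 2121 in the same order, and both KO libraries were below both WT libraries, although the median log2 difference of these genes, KO minus WT, was -0.09 in PA and 0.15 in RO. Pachytene genes (10) summed to 2006, 1876, 1319 and 1276 and round spermatid genes (7) to 296, 581, 336 and 478, so that RO stood above PA in round spermatid genes and held nearly as much of the pachytene genes. Malat1, a nuclear noncoding RNA, set WT PA apart with a level of 74816 against 19440.2 to 27145 in the other libraries. The 4 Leydig cell markers summed to 199 in WT PA and to between 35.1 and 61.7 in the other libraries, and 5 endothelial markers to 171 and 98.8 in WT and 237 and 248 in KO. The sums of 6 Sertoli markers lay between 168 and 312, of 3 peritubular myoid markers between 175 and 366, of 2 macrophage markers between 44.8 and 79.1 and of 5 spermatogonial markers between 40.4 and 93.3, and no erythroid marker was named. The part of these cell types in the differences below was not tested, and in bulk RNA fewer cells of a type and less RNA per cell cannot be told apart.

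**Figure D1:**
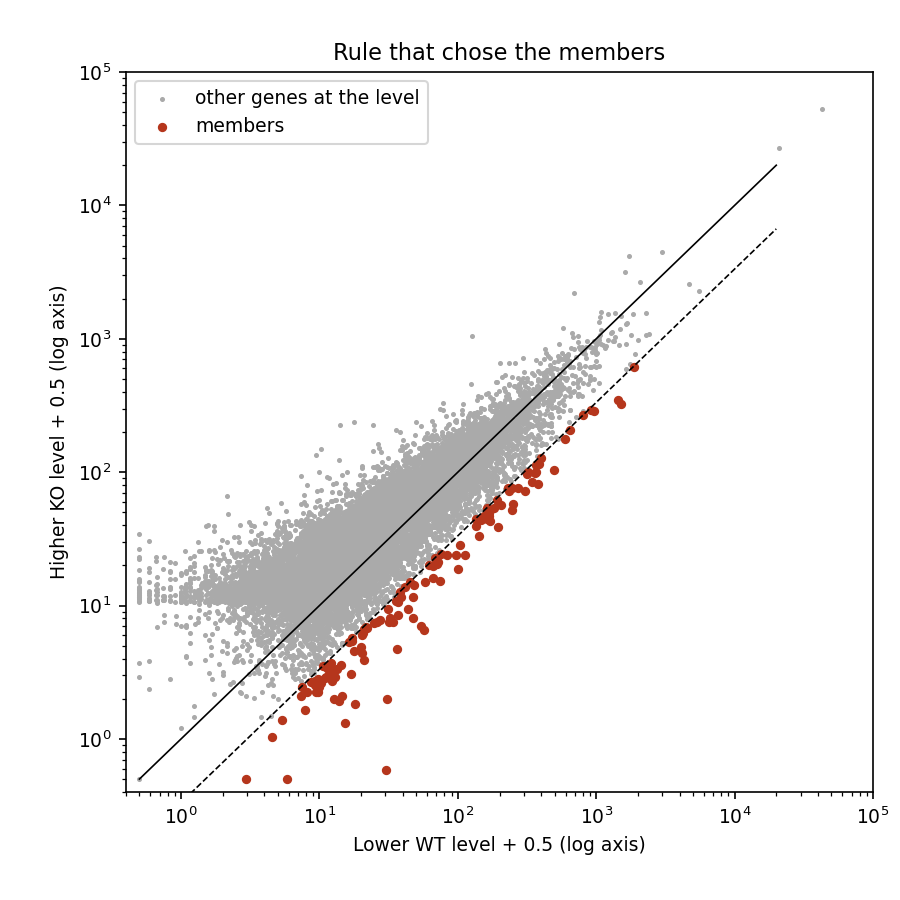
Lower WT level against higher KO level, each plus 0.5 on log axes, for 13493 genes that reached the level, with the 124 chosen genes in red. The solid line marks equal levels and the dashed line a ratio of 3; the chosen genes lie below the dashed line by construction.

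The chosen genes took 1.90% of the scaled counts in WT PA and 2.02% in WT RO, against 0.569% in KO PA and 0.552% in KO RO. Their median level was 40.1 in WT PA, 47.7 in WT RO, 7.70 in KO PA and 9.08 in KO RO. The ratio of the lower WT to the higher KO level was between 3 and 4 for 78 genes, between 4 and 5 for 30, between 5 and 10 for 12 and above 10 for 4. Its median was 3.61, against 0.715 over all genes at the level. Of the 124 genes, 62 were under the level in both KO libraries and so had reached it through WT alone, 58 reached it in all 4 libraries and 4 reached it in 1 KO library. The values just inside the limit were 3.011 for a gene without a symbol and 3.015 for Tedc1, of a tubulin complex of the centrioles, and those just outside 2.993 for Gm12128 and 2.987 for a gene without a symbol. With a library left out the rule sets fewer conditions, so a larger count does not show the influence of that library. The count was 291 genes without WT PA, 283 without WT RO, 282 without KO PA and 297 without KO RO. Of the 124 genes, 118, 115, 123 and 124 were kept in the same order. It was 511 or 483 when only the PA or only the RO libraries were used.

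A symbol could be given to 61 of the genes, those with an m6A peak in at least 1 of the 4 lists the authors deposited, since the lists alone pair identifiers with symbols. The other 63 had a median lower WT level of 24.1, against 134 for the genes with a symbol. ENSMUSG00000042650 had the largest ratio of all, 50.9, with 360 counts in WT PA, 378 in WT RO, 1 in KO PA and 0 in KO RO. Its fold, WT over KO, was 329.6 in PA (58.8 to 13054). In RO it was 119.6 with 3 counts put in place of the 0 (exact interval from 96.8). ENSMUSG00000078137 followed with 398, 361, 8 and 17 counts in the same order and a ratio of 15.4. The files do not pair these identifiers with names, so Alkbh5 was not followed by name and the genotype labels were not checked on it. Whether either identifier is the deleted gene itself, for which near-absence in KO would be the deletion, was not settled here.

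Part of the 39 protein-coding genes with a symbol are described by known role, a grouping made after the values were seen. Others, among them Pou2f2, Cacna1h, Mapk15, Fbxw5, Dusp15 and Ankar, are left out here. The share of each role in all genes was not counted, so no role is shown to be frequent. The late spermatid list, which holds the tail genes Odf1 and Akap4, had none of its 10 genes among those chosen. Of all 7002 genes with a symbol at the level 61 were chosen, a share at which a list of 10 mostly holds none. Some chosen genes nevertheless serve the sperm tail. Dnah2, a heavy chain of the dynein arms that power the axoneme, was at a level of 1883 in WT PA and 2148 in WT RO, and at 597 in KO PA and 614 in KO RO. WT exceeded KO 3.16-fold in the PA libraries (3.07 to 3.24) and 3.50-fold in the RO libraries (3.41 to 3.59). Dnhd1, a dynein heavy chain domain protein needed for the sperm tail, was at 1023 and 963 in WT and at 288 and 218 in KO (PA and RO). Catsperg1, a subunit of the CatSper calcium channel of the tail, was at 925 and 913 in WT and 266 and 290 in KO, with folds of 3.48 (3.34 to 3.62) and 3.15 (3.03 to 3.27). It has a close copy in the mouse genome, so its counts are uncertain where reads fit both.

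Sept12, a septin of the ring between midpiece and principal piece of the tail, had 492 in WT PA, 545 in WT RO, 104 in KO PA and 84.1 in KO RO. These are folds of 4.74 (4.45 to 5.05) in PA and 6.49 (6.06 to 6.95) in RO. Slc26a8, an anion transporter of the same ring, had 206 and 218 in WT and 55.9 and 54.1 in KO. Odf4, an outer dense fibre protein, had 169 and 177 in WT and 32.4 and 42.6 in KO. Iqcd, of the complex that links the dyneins, had 181 and 200 in WT and 49.4 and 53.1 in KO. The genotypes do not overlap in any of these genes, which the rule itself fixed.

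Lrrc71, a leucine-rich repeat gene, had the most counts among the 10 genes with a symbol of largest ratio. Its level was 1514 in WT PA, 1531 in WT RO, 306 in KO PA and 324 in KO RO. Folds of 4.94 (4.77 to 5.13) and 4.72 (4.56 to 4.90) rested on at least 3419 counts in each library. Cchcr1, a centrosomal coiled-coil protein, was at 809 and 851 in WT and 266 and 249.8 in KO, with folds of 3.03 (2.91 to 3.16) and 3.41 (3.27 to 3.55).

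Genes of the sperm surface included Izumo4, of the family of the sperm protein that binds the egg, and Adam3, which sperm need to pass into the oviduct. Izumo4 was at 247 in WT PA, 289 in WT RO, 51.3 in KO PA and 45.7 in KO RO, folds of 4.81 (4.39 to 5.26) and 6.31 (5.75 to 6.93). Adam3 was at 400.2 and 388 in WT and at 112 and 115 in KO, folds of 3.58 (3.36 to 3.81) and 3.36 (3.16 to 3.58). Tcam1, a testis cell adhesion molecule, was near the limit, with 150.4 and 134 in WT and 43.6 and 44.1 in KO. Pkd2l2, a polycystin-like channel of the testis, had 103 and 109 in WT and 27.9 and 26.8 in KO.

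Meiotic genes included Cntd1, a cyclin-like protein needed for crossovers, and Kctd19, needed to complete meiotic prophase. Cntd1 was at 186 in WT PA, 161 in WT RO, 33.5 in KO PA and 44.0 in KO RO. Kctd19 was at 395 and 416 in WT and 123 and 128 in KO, with folds of 3.22 (3.03 to 3.42) and 3.26 (3.07 to 3.46).

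Among genes of broader use, Dvl1, the Dishevelled adaptor of Wnt signalling, was at 606 and 598 in WT and 129.9 and 176 in KO. WT exceeded KO 4.66-fold in the PA libraries (4.41 to 4.94) and 3.40-fold in the RO libraries (3.24 to 3.58). Mif4gd, which helps translate histone messages, was at 341 in both WT libraries and at 83.6 in KO PA and 66.4 in KO RO. Fbn2, the matrix protein fibrillin 2, was at 365 and 372 in WT and 112.5 and 83.2 in KO, and Cc2d2b at 367 and 388 in WT and 99.9 and 88.4 in KO. Shank1, a scaffold known from synapses, had 183 and 147 in WT and 43.1 and 38.3 in KO, and Ap5b1, a subunit of an adaptor complex of endosomes, 20.5 and 26.9 in WT and 6.18 and 3.61 in KO.

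A pair of the genes with few counts are known from vessels, a remark made after the values were seen. Selp, the P-selectin of endothelium and platelets, had 166 counts in WT PA, 141 in WT RO, 20 in KO PA and 25 in KO RO. Prox1, a transcription factor of lymphatic endothelium, was at 10.7 and 11.3 in WT and 2.42 and 2.03 in KO. The 5 endothelial markers with a symbol, Pecam1, Cdh5, Kdr, Vwf and Flt1, went the other way in their sum, as given above, and none of them was chosen. Pxdc1, named for its large PA level in WT relative to RO, had 202 and 111 counts in WT and 19 and 20 in KO.

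**Figure D2:**
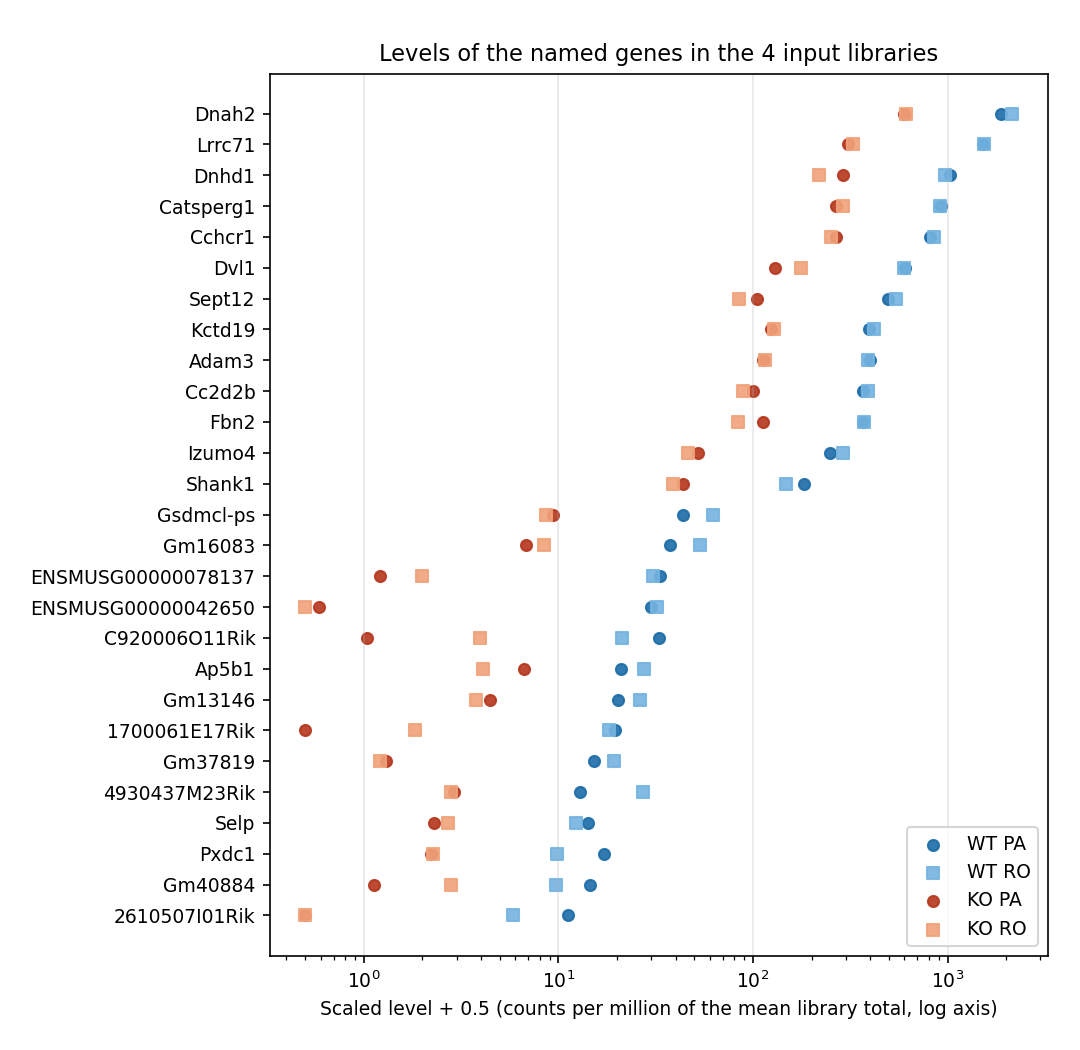
Levels plus 0.5 (log axis) of the 27 genes named by rule in WT PA, WT RO, KO PA and KO RO, 1 library each, ordered by the lower WT level. The blue WT points lie right of the red and orange KO points in each gene, as the rule requires; for Dnah2 they are at 1883 and 2148 against 597 and 614.

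Relatives of the tail and surface genes were counted to see how far the differences reached within families (families grouped by symbol after the values were seen). Among 10 dynein heavy chain (Dnah) genes with a symbol, Dnah2 was the only one chosen, and the median ratio of the lower WT to the higher KO level was 1.75, above the 0.762 of all 7002 genes with a symbol at the level. Dnah1 reached 2.78 and Dnah17 2.16, while Dnah3 was at 0.596. Among 6 CatSper genes the median was 1.83, with Catsperg1 at 3.14, Catspere1 at 2.09, Catsper2 at 2.03 and Catsper4 at 0.652. The Adam family held 20 genes with a median of 0.420, and Adam3 alone was above 2. Odf1, a tail gene like Odf4, went the opposite way, with levels of 26.3 and 48.7 in WT and 85.0 and 150.3 in KO.

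The 18 lists covered germ cell stages, somatic cells, m6A enzymes and readers, chromatin, RNA decay, stress and signalling genes. They held 184 different genes at the level, of which Adam3 was the only one chosen. Of all 7002 genes with a symbol at the level 61 were chosen. At that share a short list mostly holds no chosen gene, so a list without one does not stand apart. The 10 pachytene genes had a median log2 difference, KO minus WT, of -0.44 in PA and -0.44 in RO, and the 10 late spermatid genes of 1.26 and 1.36. Over all genes at the level the medians were -0.01 and -0.02. In the list of the piRNA pathway, which silences transposons in germ cells, Tdrd6 came nearest, with 1857 in WT PA, 1740.0 in WT RO, 562 in KO PA and 649 in KO RO. None of the 13 m6A enzymes and readers with a symbol was chosen. Alkbh5 is not among the 13, since the peak lists give it no symbol. Whether a chosen identifier is Alkbh5 was not settled, as said above.

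Genes that do not code for protein made up 22 of the 61 genes with a symbol (36.1%), against 774 of all 7002 genes with a symbol at the level (11.1%). They were 9 lincRNAs, 4 antisense RNAs, 7 pseudogenes, 1 processed transcript and 1 unclassified transcript (TEC). Fewer reads lay behind them, with a median lower WT level of 20.2 against 169 for the 39 protein-coding genes, and genes with few reads were more often noncoding. Within ranges of the highest level the share was 11 of 15 at 10 to 30, against 20.7% of all genes with a symbol, 7 of 14 at 30 to 100, against 8.62%, and 4 of 32 at 100 or more, against 3.85%. Among the 39 genes with a symbol taken by the mirrored rule, 7 were long noncoding or TEC and 4 were pseudogenes, so the genes higher in KO also held more noncoding genes than the 11.1% of all. These values come from genes chosen for their difference and were not tested.

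**Figure D3:**
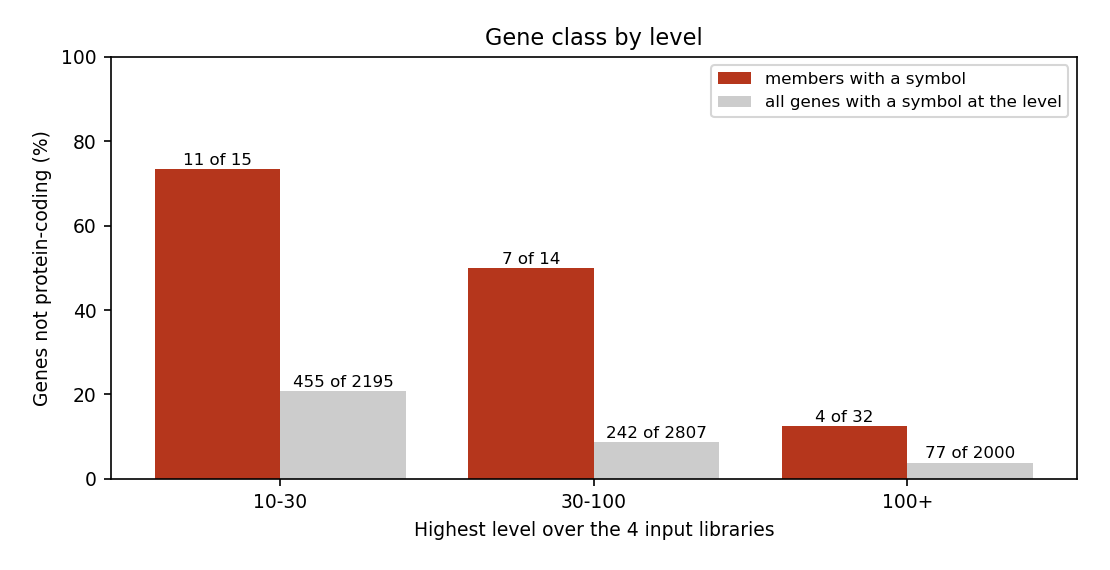
Share of genes that are not protein-coding, in percent, by the highest level over the 4 input libraries, for the chosen genes with a symbol (red) and all genes with a symbol at the level (grey), with the counts above the bars. The red bar is the higher one in each range, 73.3%, 50% and 12.5% against 20.7%, 8.62% and 3.85%.

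The noncoding genes also held the largest ratios among genes with a symbol. The processed transcript 2610507I01Rik had 131 counts in WT PA, 64 in WT RO and 0 in both KO libraries, at least 40.0-fold in PA and at least 20.3-fold in RO, taking 3 counts per library for the 0. The TEC gene Gm37819 had 180, 225, 9 and 8 counts in WT PA, WT RO, KO PA and KO RO. The antisense RNA 1700061E17Rik had 231, 211, 0 and 15 counts. Its fold was 70.5 in PA with 3 counts put in place of the 0 (exact interval from 56.9), and 13.4 (7.91 to 24.3) in RO. The lincRNA C920006O11Rik had 394, 246, 6 and 39 counts, folds of 60.1 (27.4 to 165) and 5.99 (4.26 to 8.63). In these 4 genes the lower WT library held at least 64 counts and the higher KO library at most 39.

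Further noncoding genes were nearer the limit. Gsdmcl-ps, a pseudogene of the gasdermin family, was at levels of 43.0 and 61.8 in WT and 8.87 and 8.11 in KO, and the processed pseudogene Gm13146 at 19.8 and 25.7 in WT and 3.94 and 3.26 in KO. The antisense RNA Gm16083 was at 36.7 and 53.0 in WT and 6.27 and 7.93 in KO, and the lincRNA 4930437M23Rik at 12.5 and 26.7 in WT and 2.42 and 2.29 in KO. Counts of processed pseudogenes are uncertain where their reads fit the parent gene, and those of antisense RNAs because the sources used here do not say whether counting used the strand.

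Levels in PA and RO were close for these genes. The median log2 difference, RO minus PA, was 0.05 in WT and 0.01 in KO, against -0.02 and -0.02 over all genes at the level. In WT 4 genes were at least 2-fold higher and 2 at least 2-fold lower in RO (3.23% and 1.61%), against 11.8% and 9.65% of all genes. In KO 13 were higher and 4 lower (10.5% and 3.23%), against 5.40% and 5.62%. A gene with a large stage difference can less easily have both WT above both KO libraries, so the rule itself bears on these shares. Of the 58 genes at 10 or more in all libraries, none differed 2-fold between stages in either genotype, whereas 955 of 8756 such genes did in WT and 288 in KO. Among genes with a symbol 4930437M23Rik was the most RO-weighted in WT, with a log2 difference of 1.07, and 2610507I01Rik the most PA-weighted, at -0.94.

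**Figure D4:**
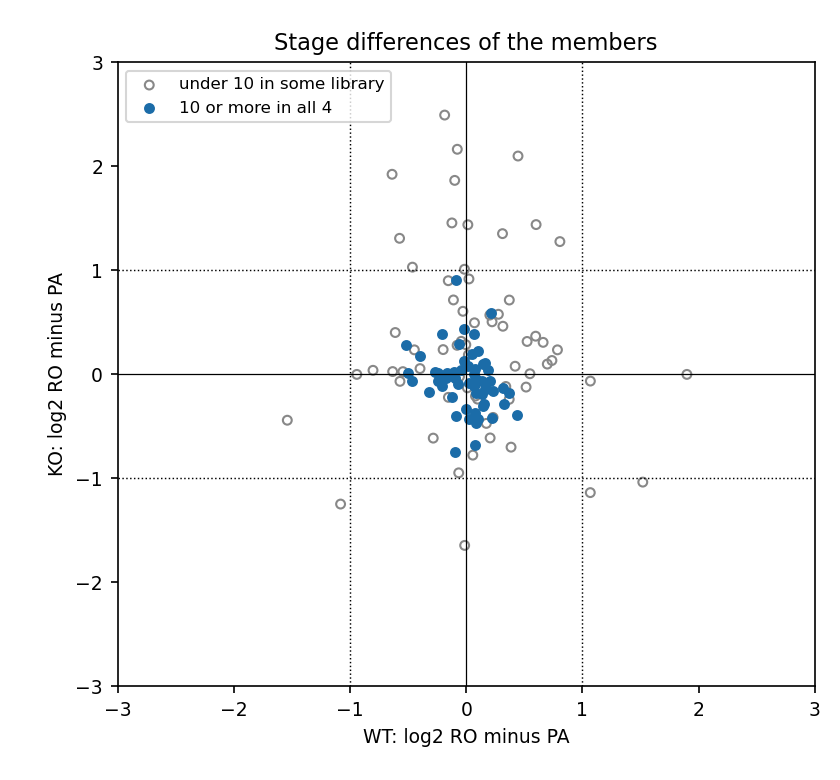
Log2 difference RO minus PA in WT (horizontal) and in KO (vertical) for the 124 genes; filled points are the 58 genes at 10 or more in all 4 libraries and dotted lines mark 2-fold. All filled points lie inside the dotted square, and the 13 genes past the upper line are under 10 in some library.

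The m6A peaks were read from the 4 deposited lists, in which each peak has a fold of the pulled-down over the input library computed by the authors. That fold has the same input libraries in its denominator, so it is not independent of the rule. Of the 124 genes, 35 had a peak in the WT PA list (28.2%, interval 21.1% to 36.7%), 52 in WT RO (41.9%, 33.6% to 50.7%), 36 in KO PA (29.0%, 21.8% to 37.6%) and 30 in KO RO (24.2%, 17.5% to 32.4%). Over all genes at the level the shares were 30.4%, 36.3%, 39.7% and 35.7%. The intervals of the chosen genes held the share of all genes in both WT lists and lay below it in both KO lists. The rule fixed fewer reads for these genes in KO, so this position of the intervals is not a test.

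A peak is easier to call in a gene with more reads, and the chosen genes have fewer reads in KO. Within ranges of the level in the matching input, genes at 30 to 100 had a peak in 17 of 28 cases in KO PA (60.7%, 42.4% to 76.4%) and in 17 of 30 in KO RO (56.7%, 39.2% to 72.6%), against 48.5% and 43.6% of all genes. In WT PA the share at 30 to 100 was 5 of 31 (16.1%, 7.09% to 32.6%) against 36.7%, and at 100 or more 23 of 43 (53.5%) against 54.0%. In WT RO it was 11 of 32 (34.4%) and 30 of 43 (69.8%, 54.9% to 81.4%), against 44.4% and 58.8%. At 10 to 30 the KO PA share was 1 of 18 against 31.2%, and the KO RO share 3 of 22 against 28.3%. Under 10, where most of the chosen genes lie in KO PA, the shares were 10 of 66 (15.2%) against 18.3% in KO PA and 5 of 62 (8.06%) against 17.0% in KO RO. At 100 or more they were 8 of 12 (66.7%) against 67.4% in KO PA and 5 of 10 against 60.9% in KO RO, so the KO shares lay above those of all genes at 30 to 100 alone.

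**Figure D5:**
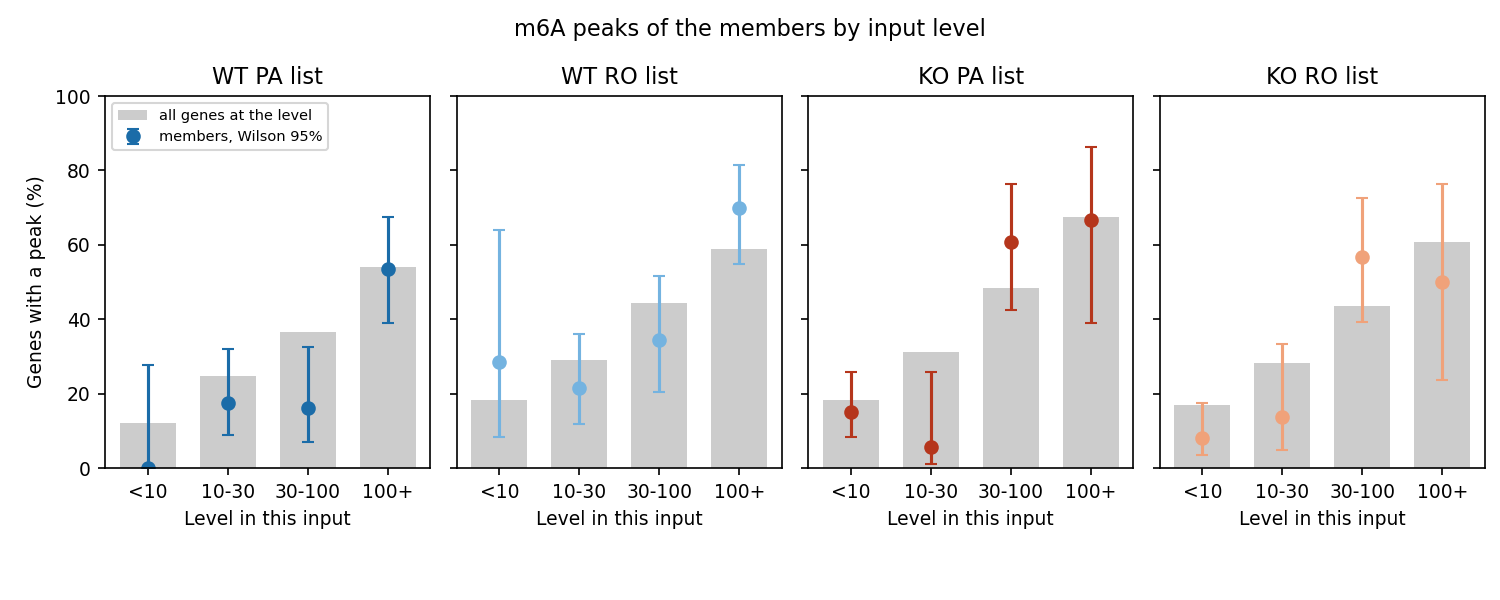
Share of genes with an m6A peak, in percent, by the level in the matching input library, for the 4 peak lists. Points with Wilson 95% intervals are the chosen genes and grey bars all genes at the level; the interval lies wholly below the bar at 30 to 100 in WT PA (16.1% against 36.7%) and at 10 to 30 in KO PA.

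In 24 genes a peak was listed in all 4 lists, among them Sept12, Cntd1, Kctd19, Tcam1, Dnhd1, Slc26a8, Ptpn20 and 1700061E17Rik. A further 22 genes had a peak in a WT list and none in a KO list, 15 of them in WT RO alone. That is 36.1% of the 61, against 15.995% of all 7002 genes with a symbol at the level. The reverse, a peak in KO lists only, held for 5 genes (8.20% against 17.6%), Gm37819, Selp, Prox1, Pxdc1 and Dnah2. The lists include peaks at a false discovery rate of 0.05 or more. Among peaks of the chosen genes these were 1 in WT PA, 5 in WT RO, 3 in KO PA and 3 in KO RO. The only peaks of Selp and Prox1 were among them (0.066 each), as were those of 4930524B15Rik (0.41) and 5730422E09Rik (0.11), listed in WT RO alone. In WT RO, 39 of 84 peaks of the chosen genes overlapped a KO RO peak by 1 bp or more on the same strand (46.4%, 36.2% to 57.0%), against 55.9% of all WT RO peaks. In WT PA it was 36 of 54 (66.7%, 53.4% to 77.8%) against 79.7%. Seen from the other side, 38 of 44 KO RO peaks overlapped a WT RO peak (86.4%, 73.3% to 93.6%) against 58.9% of all KO RO peaks. For KO PA, 35 of 54 peaks overlapped a WT PA peak (64.8%, 51.5% to 76.2%) against 56.6%. The rule gives the chosen genes fewer reads in KO, so it bears on all shares in this paragraph. None of them was matched for level, and they do not show a trait of m6A in these genes.

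By the authors' annotation in the deposited lists, coding sequence held 20 of the 54 peaks in WT PA, 31 of 84 in WT RO, 24 of 54 in KO PA and 19 of 44 in KO RO, or 37.0%, 36.9%, 44.4% and 43.2%. Over all peaks it held 56.4%, 49.8%, 55.2% and 53.4%. The class exon held 29.6%, 31.0%, 29.6% and 25%, against 19.97%, 21.7%, 19.2% and 19.4%. Noncoding genes hold no coding sequence, and they were 36.1% of the chosen genes with a symbol against 11.1% of all. These shares were not split by gene class, so they are not separate from that difference. The folds in the authors' deposited tables had a median percentile within their list of 40.2 in WT PA and 32.8 in WT RO. It was 41.2 in KO PA and 43.4 in KO RO. With the best peak of each gene alone, the medians from the authors' deposited tables were 45.2, 38.1, 45.9 and 49.0 in the same order. These ranks were not matched for level.

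The following positions count from 1 in the mouse build mm10, which the submitters' processing notes name. Dnhd1 held the most peaks, 5, 8, 5 and 5 in WT PA, WT RO, KO PA and KO RO. In the authors' deposited tables its strongest KO peaks lay in coding sequence on chromosome 7, from 105703510 to 105704080 in KO PA (fold 98.5, percentile 98.02 of its list) and to 105703990 in KO RO (fold 123, percentile 98.5). The overlapping peaks in the authors' deposited tables for WT had folds of 4.94 (percentile 15.1) in PA and 7.53 (percentile 19.0) in RO. Elsewhere in Dnhd1 the order in RO was the reverse. The peak from 105651787 stood at percentile 89.4 in WT RO, and the overlapping one from 105651847 at 40.3 in KO RO. In PA the peaks there stood at 57.9 in WT and 64.6 in KO. Folds of different lists do not show a change between them, because the input in the denominator is lower in KO by the rule. Sept12 had a peak at the end of the gene on chromosome 16 in each list, in WT PA from 4987307 to 4987786, in the 3′ untranslated region. In the authors' deposited tables it stood at percentile 67.0 in WT PA, 58.7 in WT RO, 39.7 in KO PA and 93.6 in KO RO.

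The peak of Cntd1 on chromosome 11 from 101279152 stood at percentile 75.1 in WT PA, 91.7 in KO PA and 91.1 in KO RO of the authors' deposited tables, and a WT RO peak that began at 101279072 at 41.5. That of Slc26a8 on chromosome 17, from 28638171 to 28638678 in WT PA, stood at 88.4 in WT PA, 31.1 in WT RO, 93.6 in KO PA and 90.5 in KO RO of the authors' deposited tables. The 3′ peak of Mif4gd on chromosome 11, from 115608038 to 115608548 in WT PA, stood in the authors' deposited tables at 84.2 in WT PA, 93.1 in WT RO, 20.3 in KO PA and 68.3 in KO RO. Odf4, which had a 3′ peak from 68921865 to 68922014 on chromosome 11 in both WT lists (percentile 66.1 and 84.9 in the authors' deposited tables), had none in KO. Percentiles place a peak within its own list, and lists of different length do not show a change between them.

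The highest folds in WT belonged to other genes. For WT RO, the authors' deposited table gives folds of 342 for Ap5b1 (chromosome 19, 5569775 to 5570102, coding sequence) and 258 for the lincRNA Gm40884 (chromosome 12, 54658962 to 54659907). For WT PA, the authors' deposited table gives 209 for Shank1 (chromosome 7, 44357068 to 44357607) and 66.4 for Gm40884. In the authors' deposited tables for KO the next after Dnhd1 were 105 for Fbn2 in RO and 59.8 for Gm13146 in PA. Some of these folds rest on few input reads. Over the whole gene Ap5b1 had 322 counts and Gm40884 110 in WT RO, Gm40884 170 in WT PA and Gm13146 44 in KO PA. Shank1 had 2231 in WT PA and Fbn2 944 in KO RO. The antisense RNA 1700061E17Rik had a peak in each list from 110987093 on chromosome 9, also in KO PA, where the authors' deposited table gives a fold of 29.0 although the gene has 0 counts in that input library.

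Chromosome 11, which carries Alkbh5 (60537683 to 60558512 in the RefSeq annotation of GRCm38.p6, the same assembly), held 10 of the 61 genes with a symbol (16.4%, 9.16% to 27.6%), against 7.63% of all genes with a symbol at the level. They were 2610507I01Rik, Gm12057, Mif4gd, Odf4, Cntd1, Sdk2, Slc13a5, 4930524B15Rik, Dnah2 and Tcam1. The nearest was 2610507I01Rik, 1.34 Mb away, 1 of 2 chosen genes with 0 counts in both KO libraries. Odf4 lay 8.36 Mb and Dnah2 8.86 Mb from Alkbh5 and 0.494 Mb from each other, and 6 genes lay over 20 Mb away. Of the genes with a symbol at the level, 1 of 51 within 5 Mb of Alkbh5, 2 of 67 at 5 to 10 Mb, 1 of 93 at 10 to 20 Mb and 6 of 323 farther away were chosen, against 61 of 7002 over all chromosomes. Other close pairs were Mapk15 and Smpd5 on chromosome 15 (0.295 Mb) and C920006O11Rik and Gm8093 on chromosome 9 (0.249 Mb).

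Promoters are shown for the 5 protein-coding genes with the largest ratios among those at a lower WT level of 100 or more with a RefSeq window, because they are the clearest cases of genes that were low together. Each run gives 250 bases before to 50 after the annotated start (GRCm38.p6, gene strand, 5′ to 3′). Windows were searched on both strands for AACNGNC, a core that MYB factors such as the pachytene regulator MYBL1 bind, for TGACG, the core of the element bound by the spermatid factor CREM (in full TGACGTCA, which contains it), and for the outline of the X-box, which RFX factors bind. Capitals mark matches, and in Lrrc71 the MYB and X-box matches overlap.
Sept12: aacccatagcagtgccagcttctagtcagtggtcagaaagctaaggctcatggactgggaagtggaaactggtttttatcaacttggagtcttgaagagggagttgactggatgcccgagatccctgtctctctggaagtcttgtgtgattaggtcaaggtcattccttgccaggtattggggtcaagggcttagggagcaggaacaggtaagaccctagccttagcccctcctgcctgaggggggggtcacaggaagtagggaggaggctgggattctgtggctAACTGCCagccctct
Lrrc71: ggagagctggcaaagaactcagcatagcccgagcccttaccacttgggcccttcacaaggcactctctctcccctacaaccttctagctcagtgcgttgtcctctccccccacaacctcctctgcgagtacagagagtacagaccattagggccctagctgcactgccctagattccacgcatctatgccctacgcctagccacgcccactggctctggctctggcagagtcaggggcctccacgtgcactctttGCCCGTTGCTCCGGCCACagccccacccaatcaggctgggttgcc
Ptpn20: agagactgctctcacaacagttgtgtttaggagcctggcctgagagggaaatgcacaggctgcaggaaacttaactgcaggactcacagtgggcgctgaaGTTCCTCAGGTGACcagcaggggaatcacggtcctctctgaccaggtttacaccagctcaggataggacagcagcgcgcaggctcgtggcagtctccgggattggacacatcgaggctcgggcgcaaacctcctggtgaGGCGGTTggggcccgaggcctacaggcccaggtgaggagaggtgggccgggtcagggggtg
Mif4gd: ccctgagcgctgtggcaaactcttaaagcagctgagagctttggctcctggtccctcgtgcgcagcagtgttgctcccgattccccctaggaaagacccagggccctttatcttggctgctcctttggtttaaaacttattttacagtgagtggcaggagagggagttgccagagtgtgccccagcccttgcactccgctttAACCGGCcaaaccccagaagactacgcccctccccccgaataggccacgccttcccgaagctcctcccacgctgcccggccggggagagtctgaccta
Odf4: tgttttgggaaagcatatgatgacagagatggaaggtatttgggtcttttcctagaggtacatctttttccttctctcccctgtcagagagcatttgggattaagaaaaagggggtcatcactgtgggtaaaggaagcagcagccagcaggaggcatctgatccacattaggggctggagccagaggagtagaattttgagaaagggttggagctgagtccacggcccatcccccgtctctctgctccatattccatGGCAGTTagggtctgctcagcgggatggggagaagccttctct

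The windows lie on chromosome 16 at 4997803 to 4998102 (Sept12, named Septin12 in RefSeq), chromosome 3 at 87748574 to 87748873 (Lrrc71), chromosome 14 at 33589020 to 33589319 (Ptpn20), chromosome 11 at 115612920 to 115613219 (Mif4gd) and chromosome 11 at 68927032 to 68927331 (Odf4). Each of the 5 windows shown held 1 match to AACNGNC, Lrrc71 and Ptpn20 also 1 to the X-box outline, and none a match to TGACG. Sept12 and Mif4gd have 2 windows each, of which 1 is shown. Ptpn20, a tyrosine phosphatase, was at levels of 365 and 307 in WT and 71.5 and 72.0 in KO.

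A RefSeq promoter was found for 34 of the 61 genes with a symbol. AACNGNC was found for 21 of them (61.8%, 45.0% to 76.1%), against 40.0% of 5257 genes with a symbol at the level and 32.8% of all 32851 windows. TGACG was found for 6 (17.6%, 8.35% to 33.5%), against 36.0% and 20.8%, TGACGTCA for 2 against 3.56% and 1.79%, and the X-box outline for 4 (11.8%, 4.67% to 26.6%), against 7.91% and 4.62%. The median GC content was 57.3% in the windows of the chosen genes and 60.7% in those of genes at the level. A match to these letters describes the window and does not show that a factor binds there.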

How the data were processed

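Fragmented total RNA (TRIzol, zinc chloride) was pulled down with a polyclonal m6A antibody and made into libraries with a NEBNext Ultra II kit, per the labels' protocols. The authors deposited raw whole-number counts per Ensembl gene for the 4 input libraries, and 4 peak lists in which, per the file headers, columns hold a fold enrichment (a ratio) and a p-value and false discovery rate on a log scale (read as log10) for every peak. The submitters' processing notes name cutadapt 2.5, HISAT2 2.1.0, HOMER 4.10.4 and mm10 without their roles; the counter, peak caller and strand handling are not given in the sources used here. Samples were grouped by title and lists by their names.

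Levels used median-of-ratios factors over 20912 genes with a count in every library. No test was run: the rule used the contrast, and each group has 1 library. Differences are on the log2(level + 0.5) scale. Members and gene lists were chosen with earlier results of these data known. Named genes followed a rule: the 10 largest ratios, the 10 highest lower WT levels, the 4 highest and 4 lowest stage differences in WT, the 2 highest peak folds of each list, members of a list, 2 genes on each side of the limit and 2 without a symbol; Slc26a8, Odf4, Iqcd, Cntd1, Tcam1, Pkd2l2, Prox1, Mif4gd, Ptpn20 and the family, neighbour and promoter genes were chosen after their values were seen. RefSeq matched 57 of 61 symbols, 57 on the same chromosome. The rule was run on simulated counts with 200 changed genes. Those counts had counting error only, around a profile shared by all libraries, and the changed genes were lowered well past the limit of 3. That run checks the calculation and says nothing about how the rule does with 1 library per group. Python 3.11.15, numpy 2.4.6, pandas 2.3.3, scipy 1.17.1, matplotlib 3.10.9, and edgeR 4.0.16 in R 4.3.3 (TMM factors only) were used. Alternatives covered scaling, limits, added constants, single libraries and peak thresholds.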

Additional observations from a re-analysis of the deposited data

Results flagged for a closer look

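Stage differences, RO minus PA, ran in opposite directions in WT and KO, each beyond counting error, for 6 of the named genes. The rule named 27 genes, 2 of them without a symbol and not looked at here. The same was not counted over all genes at the level, so 6 is not shown to be many. Ratios of Cc2d2b and Cchcr1 are close to equality, and their values under other scaling are not given here. The difference between genotypes was not tested, as there is 1 library per group. The KO minus WT difference of the log2 stage difference was 2.56 for C920006O11Rik (RO over PA 0.637 in WT and 6.40 in KO, on 6 and 39 counts), 1.88 for Gm40884 (0.660 and 3.65, on 7 and 26 counts in KO), -1.09 for Ap5b1 (1.31 and 0.585), -0.45 for Sept12 (1.11 and 0.810), -0.26 for Cc2d2b (1.06 and 0.885) and -0.17 for Cchcr1 (1.05 and 0.937).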

How the results depend on the processing

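Of 46 alternative values, 26 stayed within 1.5 times the count or within the 95% counting interval of the reported value. The count of 124 genes was 127 with TMM factors and 114 with the upper quartile, 124 and 113 of them shared with the 124 genes. It was 68 with library totals, 16 at a ratio of 5, 76 at a level of 30 and 82 with 2 added. It was 536 at a ratio of 2, 313 with no level filter, 511 in the PA libraries alone and 483 in the RO libraries alone, and 282 to 297 without one library each, a setting chosen after seeing the data. Library totals moved the WT stage difference of the chosen genes from 0.05 to 0.14, and that of all genes alike, from -0.02 to 0.07. The share of genes with a peak was 20.2% in WT PA at a fold of 5 or more, and 37.9% in KO PA for genes at a ratio of 2. For the 16 genes at a ratio of 5 it was 12.5% in WT PA, 12.5% in WT RO, 12.5% in KO PA and 6.25% in KO RO. A reciprocal overlap of 50% moved the WT RO share from 46.4% to 33.3%, and that of all WT RO peaks from 55.9% to 39.998%. The causes were not tested. No paired analysis was possible because the labels carry no replicate numbers and no result comes from a test. Genotypes were set side by side within PA and within RO. Depth limits genes whose KO libraries hold few counts: 3 of the 124 genes had 0 counts in KO PA and 3 in KO RO.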

Other observations

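None of the 61 chosen genes with a symbol lay on the X chromosome, which held 165 of the 7002 genes with a symbol at the level (2.36%). A count of 0 of 61 allows a share of up to 4.92%, taking 3 genes as its limit (Wilson upper bound 5.92%). Of the 39 genes with a symbol that the mirrored rule took, higher in both KO libraries, 12 lay there. On chromosome 11 these numbers were 10 of 61 and 1 of 39, and on chromosome 7 they were 6 of 61 (9.84%, 4.59% to 19.8%) and 0 of 39, with 7.54% of all genes with a symbol at the level there. Both sets were chosen by the difference between genotypes, and the difference between them was not tested.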
